A study of Mus musculus with 12 samples.

Results

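H3K4me1 and H3K4me2 were compared in fetal liver of C57BL/6 mouse embryos at embryonic day 14.5, as regions that carried both marks, H3K4me1 alone or H3K4me2 alone. The members were the peak lists of the 3 libraries titled H3K4me1 and the 2 titled H3K4me2, which is 5 of the series' 12 samples, and they held 223351 of the 353805 peaks on chromosomes 1 to 19, X and Y. The other lists served only to annotate them: 2 H3K4me3 and 2 H3K27ac libraries of fetal liver, and 2 ATAC-seq libraries of proerythroblasts, an early red cell precursor, in which a transposase cuts open chromatin. ChIP-seq precipitates fixed, sheared chromatin with an antibody to a histone mark and sequences the DNA. Every group had the same strain and embryonic day, and the labels name no allele or treatment. The labels do not say whether replicates came from separate litters or embryos, so the spread between libraries may be technical. Whole fetal liver mixes blood-forming cells with hepatocytes and other cells, so a shared region can be 1 cell type with both marks or different cell types with 1 mark each. The lists name no gene and no annotation of their build was at hand, so the tissue was not checked against marker genes.

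Lysine 4 of histone H3 can carry 1, 2 or 3 methyl groups. Enzymes of the MLL/SET family add these groups and demethylases remove them, and a single histone tail carries only one of these forms at a time. H3K4me1 is known as a mark of enhancers and of the flanks of promoters, H3K4me3 of promoters near the start of transcription, and H3K4me2 of both kinds of element. H3K27ac is known from active enhancers and promoters. At this age the liver is the main organ of red cell formation.

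The labels leave a pair of limits on the marks themselves. The H3K4me2 antibody has different suppliers in different fields of the labels, and which antibody made these lists is unsettled. The titles carry date-like tags, and no H3K4me1 library shares one with an H3K4me2 library, so mark and tag cannot be told apart. The lists hold no read counts and the sequencing depth is unknown. H3K4me1 peaks were the weaker calls: their median −log10 q was 3.00, 2.60 and 3.00 in H3K4me1 replicates 1 to 3, against 7.65 and 5.11 in H3K4me2 replicates 1 and 2. Exact permutation over the 10 ways to split 5 libraries into 3 and 2 gives a p of 0.2 at the smallest, so no difference between the marks could pass 0.05.

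H3K4me1 lists held somewhat more and wider peaks, but only the widths were separate. The H3K4me1 libraries had 52387, 42323 and 44542 peaks, and the H3K4me2 libraries had 42334 and 41765. H3K4me1 replicate 1 was the largest list, while replicate 2 lay within the range of H3K4me2. The mean difference was 4368 peaks (exact permutation test, two-sided, p = 0.4; adjusted over 11 results, 0.489), and without H3K4me1 replicate 1 it was 1383. The median peak width was 1395, 1278 and 1385 bp for H3K4me1, against 1149 and 1221 bp for H3K4me2. Every H3K4me1 library was wider than both H3K4me2 libraries, by a mean of 168 bp (exact p = 0.2, the smallest possible; adjusted 0.367). The difference was 335 bp at equal numbers of peaks, 334 bp with peaks less than 2 kb apart joined and 1125 bp with −log10 q of at least 5. Peaks of 10 kb or more numbered 1734, 913 and 1227 in the H3K4me1 lists and 656 and 951 in the H3K4me2 lists, where H3K4me2 replicate 2 exceeded H3K4me1 replicate 2.

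Most marked bases lay in peaks that met the other mark, and peaks of 1 mark alone were many but short. A peak was called shared when it met, by at least 1 bp, a peak of every library of the other mark, and alone when it met none. Of H3K4me1 peaks 59.1%, 68.7% and 67.1% were shared, and of H3K4me2 peaks 64.6% and 68.0%. Shared peaks held 84.3%, 87.0% and 87.7% of the bases under H3K4me1 and 84.3% and 87.7% of those under H3K4me2, ranges that overlapped.

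H3K4me1 alone took 33.0%, 23.8% and 24.8% of H3K4me1 peaks, which is 17269, 10088 and 11058 peaks. H3K4me2 alone took 16.3% and 11.9% of H3K4me2 peaks, which is 6901 and 4950. By bases the shares were 11.3%, 8.98% and 8.22% of H3K4me1 and 5.79% and 3.52% of H3K4me2. All 3 H3K4me1 values lay above both H3K4me2 values, but the class was stricter for H3K4me2, whose peaks had to avoid 3 lists and not 2. The rest, which met some libraries of the other mark, were 7.41% to 8.05% of H3K4me1 peaks and 19.1% and 20.1% of H3K4me2 peaks.

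**Figure D1:**
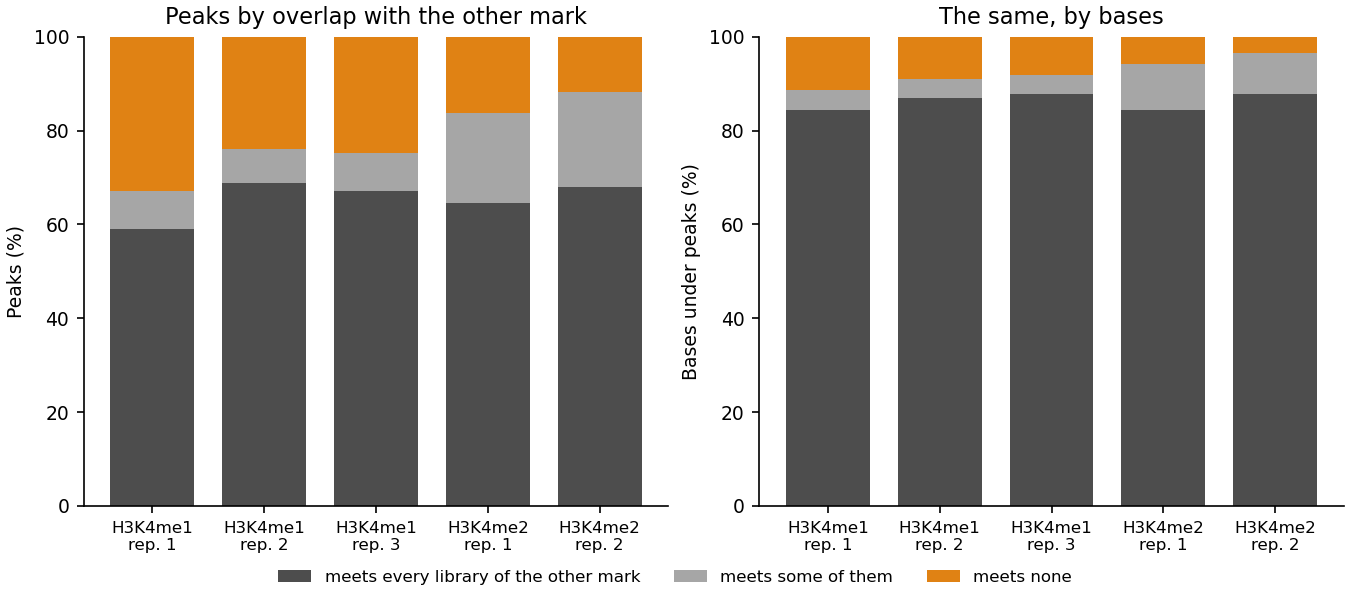
Share of peaks (left, %) and of bases under peaks (right, %) in each of the 5 libraries that met every library of the other mark, some of them or none. Peaks of 1 mark alone take up to 33.0% of a list by number but at most 11.3% by bases.

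A measure that treats each pair of libraries alike gave the same order without separating the marks. Over the 6 pairs of an H3K4me1 with an H3K4me2 library, 68.9% ± 4.94 of H3K4me1 peaks met H3K4me2 and 76.3% ± 7.25 of H3K4me2 peaks met H3K4me1. The SD here and below is over pairs that share libraries, so it is not one of independent samples. The difference of −7.38 percentage points had an exact permutation p of 0.8, and it was −0.51 points without H3K4me1 replicate 1 and −12.9 without replicate 2. With equal numbers of peaks per list it was −0.73 points. By bases, 62.8% ± 5.90 of H3K4me1 lay under H3K4me2 and 76.9% ± 8.01 of H3K4me2 under H3K4me1 (difference −14.1 points, exact p = 0.4). The base difference was −7.37 points without H3K4me1 replicate 1. Libraries of the same mark met more often, at 81.0% ± 11.2 of peaks between H3K4me1 libraries and 87.7% ± 1.37 between H3K4me2 libraries.

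The threshold on the calls turned this order round. With −log10 q of at least 5, a filter that kept 27.1%, 13.9% and 24.5% of H3K4me1 peaks and 60.2% and 50.5% of H3K4me2 peaks, 92.3% of H3K4me1 peaks met H3K4me2 and 41.8% of H3K4me2 peaks met H3K4me1. Peak numbers turned too, to means of 10331 for H3K4me1 and 23297 for H3K4me2. Strong peaks alone against the full lists of the other mark were rarer still in H3K4me1: 140, 28 and 56 peaks, or 0.986%, 0.476% and 0.513% of the strong ones, against 2104 and 641 peaks, or 8.25% and 3.04%, in H3K4me2. Strong H3K4me1 peaks thus nearly always met H3K4me2, and the many H3K4me1 peaks alone in the full lists were weak calls.

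Peaks alone were less than 1 kb wide in the main. Their median width was 667, 644.5 and 606 bp for H3K4me1 and 544 and 493 bp for H3K4me2, whereas shared peaks had 2381, 1785 and 2053 bp for H3K4me1 and 1772 and 1894 bp for H3K4me2. In the narrowest class, under 0.5 kb, 62.4% ± 9.26 of H3K4me1 peaks (SD, n = 3) and 32.2% ± 3.75 of H3K4me2 peaks (n = 2) were alone. At 2 to 4 kb these shares were 6.57% ± 2.24 for H3K4me1 and 2.39% ± 0.740 for H3K4me2, and no peak of 8 kb or more of either mark was alone. A wider peak meets another more readily.

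**Figure D2:**
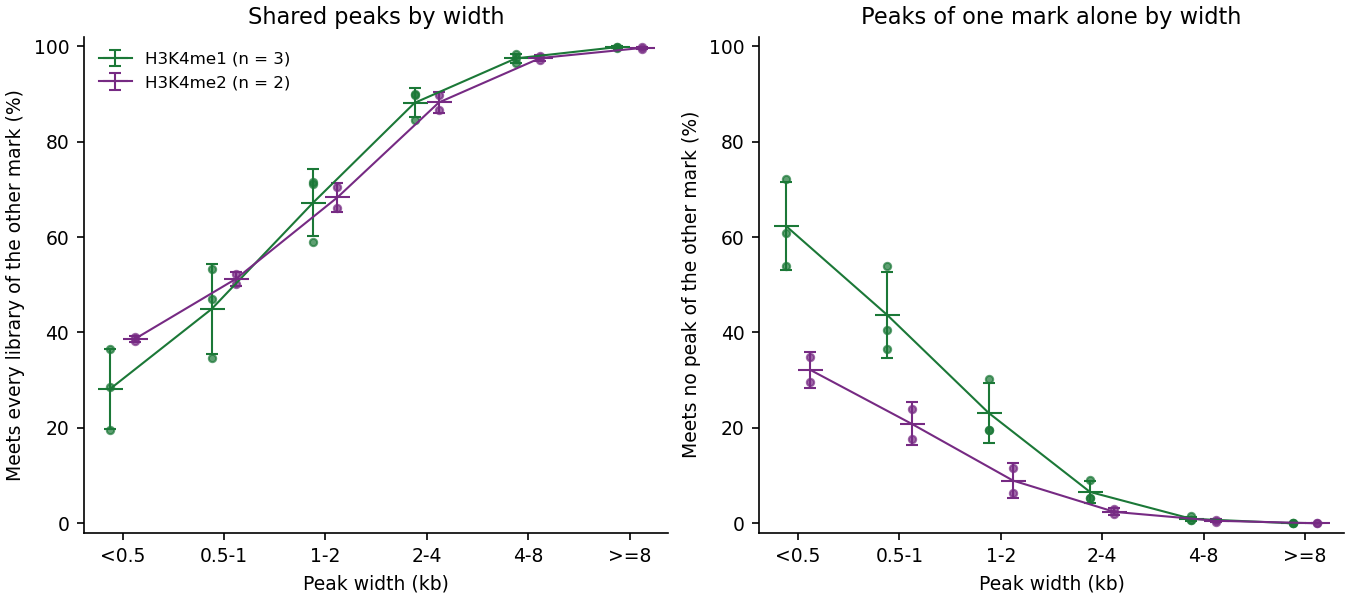
Percent of peaks shared with every library of the other mark (left) and meeting none (right), by peak width in kb, for H3K4me1 (green, n = 3) and H3K4me2 (purple, n = 2). Points are libraries and bars are the mean ± SD. The shared curves of the marks overlap from 0.5 kb up, and the share alone falls to 0 at 8 kb or more for both.

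Peaks alone also recurred less often in the other libraries of their own mark. Among H3K4me1 peaks 39.4%, 63.1% and 61.9% of those alone recurred, against 85.6%, 98.4% and 93.7% of the shared ones. Among H3K4me2 peaks 57.6% and 80.8% of those alone recurred, against 97.6% and 89.5% of the shared ones. Recurrence was lowest in H3K4me1 replicate 1, the list with most peaks. At widths of 1 to 2 kb, recurrence was 69.1% ± 11.4 for H3K4me1-alone and 92.3% ± 8.18 for shared H3K4me1 peaks (SD, n = 3). For H3K4me2 it was 85.6% and 94.9% for peaks alone and 99.7% and 94.8% for shared peaks. Replicate 2 of H3K4me2 thus showed no deficit at this width. Consensus regions, merged stretches with a peak of every library of a mark, numbered 30213 for H3K4me1 and 35820 for H3K4me2. Of these, 3922 H3K4me1 and 3872 H3K4me2 regions met no peak of the other mark, and 80.1% of H3K4me1 and 71.8% of H3K4me2 regions met a consensus region of the opposite mark. A consensus region needed a peak in 3 libraries for H3K4me1 and in 2 for H3K4me2, so these counts and shares are not like for like. The order of the shares was the reverse of that over pairs of libraries.

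The other marks divided the regions alone more sharply than number or width did. H3K4me1 alone more often met H3K27ac, and H3K4me2 alone more often met H3K4me3 and open chromatin. Consensus H3K27ac regions met 8.21%, 12.0% and 12.0% of H3K4me1-alone peaks, against 0.681% and 0.949% of H3K4me2-alone peaks. Consensus H3K4me3 regions met 0.0405%, 0.0793% and 0.00904% of H3K4me1-alone peaks, against 7.39% and 9.62% of H3K4me2-alone peaks. Proerythroblast ATAC sites met 0.475%, 0.357% and 0.425% of H3K4me1-alone peaks, against 2.52% and 2.87% of H3K4me2-alone peaks. In all 3 annotations the libraries of the marks did not overlap. Both H3K4me2 libraries share a title tag with an H3K4me3 library, and H3K4me2 replicate 1 also with an H3K27ac library, while no H3K4me1 library shares a tag with any annotation library. The part of the tags in these shares was not tested.

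The differences were 9.92 points for H3K27ac, −8.46 for H3K4me3 and −2.28 for ATAC, each with the smallest exact p of 0.2 (adjusted 0.367). Leaving out any 1 library gave 9.17 to 11.2 points for H3K27ac, −11.8 to −7.35 for H3K4me3 and −4.01 to −2.06 for ATAC. The ATAC difference was −4.01 without H3K4me1 replicate 1. Among strong peaks with −log10 q of at least 5, set against lists filtered alike, the H3K27ac difference turned to −7.83 points, with 2.92% of H3K4me1-alone and 10.8% of H3K4me2-alone peaks. The same filter moved the H3K4me3 difference to −35.3 points and the ATAC difference to −33.2 points. Strong peaks alone against the full lists of the other mark kept the H3K27ac order, at 21.8% ± 9.47 for H3K4me1 (SD, n = 3) and 2.33% ± 1.55 for H3K4me2 (n = 2).

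The order was the same within one width class. Among peaks of 1 to 2 kb, H3K27ac lay on 15.4% ± 3.16 of H3K4me1-alone peaks (SD, n = 3) and 1.77% ± 0.162 of H3K4me2-alone peaks (n = 2). In the same width class H3K4me3 lay on 0.0387% ± 0.0466 of H3K4me1-alone and 28.1% ± 7.85 of H3K4me2-alone peaks. The reach of each mark over the annotated regions stands beside this. Of the 13600 consensus H3K4me3 regions, H3K4me1 libraries met 95.6%, 84.0% and 90.7% and H3K4me2 libraries met 99.8% and 99.5%. So few H3K4me3 regions were without H3K4me2 that H3K4me1 could hardly be alone there: 0.0515% of them met H3K4me1 and not H3K4me2, and 4.01% met H3K4me2 and not H3K4me1. Of the 18236 consensus H3K27ac regions, 7.87% met H3K4me1 and not H3K4me2, and 0.356% met H3K4me2 and not H3K4me1. Of the 16271 consensus ATAC sites, H3K4me1 libraries met 90.3%, 69.5% and 84.9% and H3K4me2 libraries met 96.0% and 95.7%. Few ATAC sites were thus without H3K4me2: 0.922% met H3K4me1 and not H3K4me2, and 5.37% met H3K4me2 and not H3K4me1.

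Shared peaks of both marks met the annotations often. H3K27ac met 50.9%, 59.1% and 55.8% of shared H3K4me1 peaks and 58.4% and 56.1% of shared H3K4me2 peaks, ranges that overlap. H3K4me3 met 47.0%, 51.1% and 49.4% of shared H3K4me1 peaks and 40.1% and 38.3% of shared H3K4me2 peaks. ATAC sites met 40.7%, 34.6% and 40.6% of shared H3K4me1 and 44.8% and 42.7% of shared H3K4me2 peaks. For H3K4me3 and ATAC the shared peaks of the marks did not overlap either. Peaks alone of either mark were mostly bare: 91.4%, 87.7% and 87.6% of those of H3K4me1 and 90.4% and 88.0% of those of H3K4me2 met none of the 3.

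**Figure D3:**
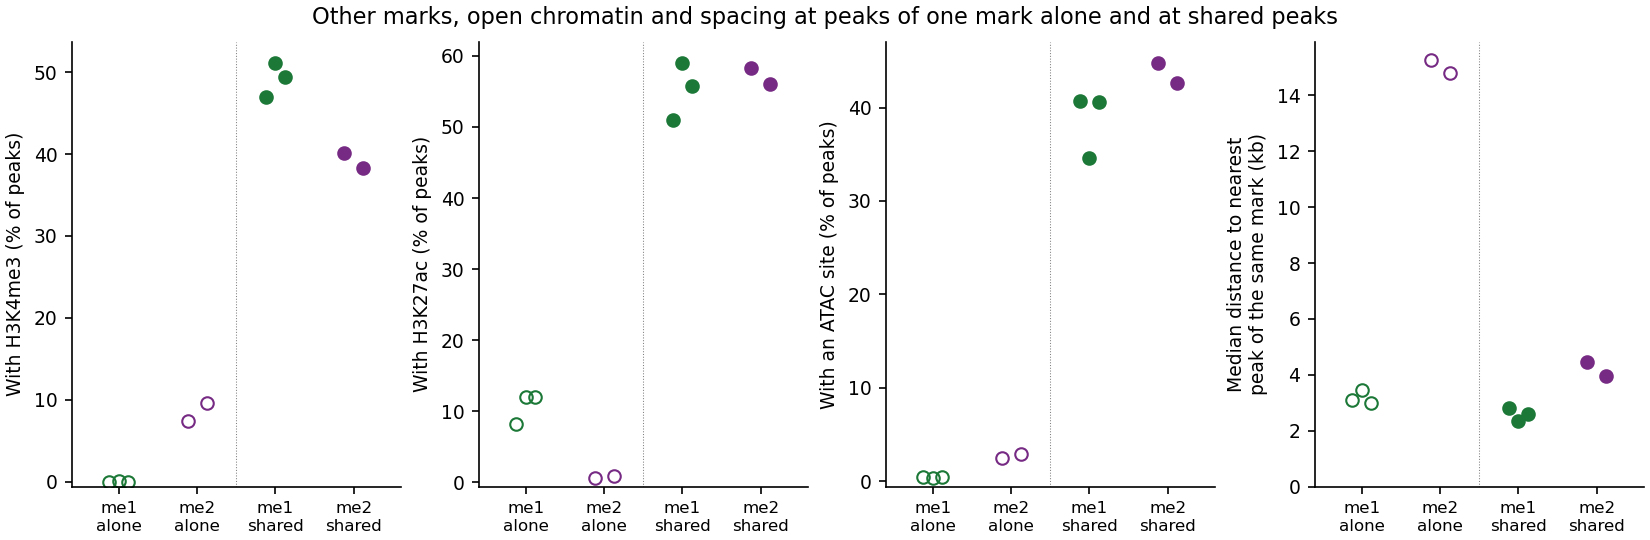
Percent of peaks that met a consensus H3K4me3 region, H3K27ac region or ATAC site, and median distance in kb to the nearest peak of the same mark. Each point is a library, for H3K4me1 (me1, green) and H3K4me2 (me2, purple) peaks alone (open) and shared (filled). H3K4me2-alone peaks lie highest of the alone groups for H3K4me3, ATAC and distance, and H3K4me1-alone peaks for H3K27ac.

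The minority of annotated peaks alone were wider and more often recurrent. The H3K4me2-alone peaks with H3K4me3 numbered 510 and 476, with median widths of 1562 and 1228.5 bp, and 90.8% and 99.6% of them recurred in the other library. Those without H3K4me3 averaged a median of 488 bp ± 36.8 and recurred in 66.9% ± 16.9 (SD, n = 2). The H3K4me1-alone peaks with H3K27ac numbered 1417, 1209 and 1330, with a mean median width of 903 bp ± 74.9, and 72.1% ± 8.63 recurred. Those without it had 618 bp ± 30.0 and 52.8% ± 13.4 (SD, n = 3). Recurrence was not compared at equal width here, and the part of width in it was not tested.

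H3K4me1 peaks lay closer together along the chromosomes than H3K4me2 peaks. The median gap between neighbouring peaks was 6549, 6724 and 6590 bp in the H3K4me1 lists, against 13131 and 11635 bp in the H3K4me2 lists, with no overlap. The difference was −5762 bp (exact p = 0.2; adjusted 0.367). H3K4me1 replicate 2 and H3K4me2 replicate 1, with 42323 and 42334 peaks, had median gaps of 6724 and 13131 bp. With −log10 q of at least 5, which thinned the H3K4me1 lists most, it turned to 13225 bp. Gaps under 2 kb made up 22.6%, 23.7% and 24.1% of H3K4me1 gaps and 11.9% and 14.6% of H3K4me2 gaps.

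Joining neighbours less than 10 kb apart showed the same grouping. H3K4me1 had 2.43 ± 0.0390 peaks per cluster (SD, n = 3) and H3K4me2 had 1.81 ± 0.0739 (n = 2). Single peaks made up 50.9% ± 0.658 of H3K4me1 clusters and 62.1% ± 1.51 of H3K4me2 clusters. Clusters of 5 peaks or more held 39.8% ± 1.68 of H3K4me1 and 20.8% ± 2.81 of H3K4me2 peaks. Joining peaks of a library less than 2 kb apart left 35550 H3K4me1 and 36494 H3K4me2 regions, so that the order of the numbers turned. The gaps kept their order, at 11486 bp for H3K4me1 and 16271 bp for H3K4me2, a difference of −4786 bp.

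H3K4me2-alone peaks were the isolated ones. The median distance of an H3K4me1-alone peak to the nearest H3K4me1 peak was 3093, 3478 and 2998 bp, whereas an H3K4me2-alone peak lay 15265 and 14783 bp from the nearest H3K4me2 peak. Shared peaks had 2813, 2335 and 2594 bp for H3K4me1 and 4462 and 3961 bp for H3K4me2. In H3K4me1 replicates 1 and 3, peaks alone therefore stood almost as near to their own mark as shared peaks did. In replicate 2 the distances were 3478 bp alone and 2335 bp shared. H3K4me2-alone peaks stood much farther out than shared ones in both libraries. The H3K4me2-alone peaks with H3K4me3 were the farthest out, at 25883 bp ± 3096 (SD, n = 2), and the H3K4me1-alone peaks with H3K27ac the nearest, at 1756 bp ± 91.8 (n = 3).

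The distance to the other mark ran the same way. It had a median of 5057, 4523 and 4209 bp for H3K4me1-alone and 18067 and 14728 bp for H3K4me2-alone peaks. Peaks more than 50 kb from the other mark were 2.99%, 2.50% and 1.78% of H3K4me1-alone and 28.4% and 25.2% of H3K4me2-alone peaks. Few peaks alone sat between peaks of the other mark: 1.06% ± 0.289 of H3K4me1-alone and 0.587% of H3K4me2-alone peaks had the other mark within 2 kb on both sides, a difference of 0.47 points (exact p = 1). It was −0.0310 points with flanks of 1 kb and 6.87 points with flanks of 5 kb, at 9.18% for H3K4me1 and 2.31% for H3K4me2 (exact p = 0.4).

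Merging each H3K4me1 with each H3K4me2 list gave a map of regions in 3 kinds. Of 52688 ± 3042 regions per pair of lists, 53.3% ± 3.17 held both marks, 27.5% ± 5.51 H3K4me1 only and 19.2% ± 6.51 H3K4me2 only (SD over 6 pairs). Regions with both marks were the longest, at a median width of 2659 bp ± 72.9, against 672 bp ± 36.2 for H3K4me1 only and 585 bp ± 59.3 for H3K4me2 only, and took 83.8% of the length. The next region after an H3K4me1-only region was of the same kind in 33.4% ± 4.05 of cases, and after an H3K4me2-only region in 38.1% ± 8.49. Each figure exceeded the mean share of its own kind in the map, while H3K4me2-only regions were followed by H3K4me1-only ones in 17.4% ± 4.90.

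H3K4me2 was nested in H3K4me1 more often than the reverse, but replicates of one mark nested in each other as unevenly. Among peaks that met the other mark, 25.2% ± 7.09 of H3K4me1 peaks lay wholly inside an H3K4me2 peak and 47.6% ± 8.08 of H3K4me2 peaks lay wholly inside an H3K4me1 peak (SD over 6 pairs; difference −22.4 points, exact p = 0.4). Without H3K4me1 replicate 1 the difference was −13.7 points. The lowest H3K4me2 value, 36.3% for replicate 2 in H3K4me1 replicate 2, lay above the highest H3K4me1 value, 34.0% for the same libraries. Between H3K4me1 libraries the share ran from 7.44% to 58.7% with the direction, which spans both.

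Whole containment of consensus regions ran mostly one way, with H3K4me2 inside H3K4me1. The H3K4me1 regions were merged from 3 lists and the H3K4me2 regions from 2, and their median widths were 2806 and 1657.5 bp. A wider region holds another more readily, and the part of width in this order was not tested. Of the consensus H3K4me1 regions, 12266 wholly held 1 consensus H3K4me2 region, 1600 held 2 and 403 held 3 or more. Of the consensus H3K4me2 regions, 2315 held 1 consensus H3K4me1 region, 145 held 2 and 3 held 3 or more. Peaks of single libraries kept this order within a width class. At 4 to 8 kb, 8.75% ± 4.39 of H3K4me1 peaks lay wholly inside 1 H3K4me2 peak (SD over 6 pairs). For H3K4me2 peaks inside 1 H3K4me1 peak the share was 29.9% ± 10.0. At 2 to 4 kb these shares were 17.2% ± 5.38 and 35.3% ± 9.84, with ranges that overlapped. With every peak met counted, and not only those wholly held, the order changed with width. At 4 to 8 kb, 24.2% ± 0.842 of H3K4me1 peaks met 2 or more H3K4me2 peaks, against 40.6% ± 8.92 of H3K4me2 peaks that met 2 or more H3K4me1 peaks. At 16 kb or more H3K4me1 peaks met 2.97 ± 0.218 H3K4me2 peaks each, and H3K4me2 peaks met 1.98 ± 0.209 H3K4me1 peaks each.

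H3K4me2 peaks that met several H3K4me1 peaks nearly all met H3K4me3. In each pair of libraries 3487 ± 796 H3K4me2 peaks met 2 or more H3K4me1 peaks, and 97.6% ± 0.668 of them met H3K4me3, against 29.2% ± 1.74 of the H3K4me2 peaks that met 1. Those with several partners were wider, at a median of 5532 against 1355 bp. At 4 to 8 kb the shares were 99.0% ± 0.366 with several partners and 75.8% ± 6.70 with 1. H3K4me1 peaks went another way: at 4 to 8 kb, 40.1% ± 3.59 of those with 2 or more H3K4me2 partners and 63.4% ± 2.22 of those with 1 met H3K4me3.

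The gaps between neighbouring peaks of one mark gave the same picture from the other side. Of gaps under 5 kb, 18.8% ± 6.28 of H3K4me1 gaps lay wholly under 1 H3K4me2 peak, and 31.7% ± 7.33 of H3K4me2 gaps lay wholly under 1 H3K4me1 peak (SD over 6 pairs). The H3K4me1 gaps bridged by H3K4me2 met H3K4me3 in 91.8% ± 2.25, H3K27ac in 87.4% ± 1.29 and an ATAC site in 85.8% ± 1.90. The H3K4me2 gaps bridged by H3K4me1 met H3K4me3 in 0.141% ± 0.0913, H3K27ac in 55.2% ± 6.22 and an ATAC site in 0.416% ± 0.130. The stretches where H3K4me2 ran on through a break in H3K4me1 thus mostly met H3K4me3 and a proerythroblast ATAC site, and those where H3K4me1 ran on through a break in H3K4me2 mostly did not. Breaks in H3K4me2 seldom met H3K4me3 in any case. All H3K4me2 gaps under 5 kb, bridged or not, met H3K4me3 in 1.14% ± 0.0547, H3K27ac in 33.4% ± 1.83 and an ATAC site in 0.764% ± 0.00959. All H3K4me1 gaps under 5 kb met H3K4me3 in 19.9% ± 6.11, H3K27ac in 35.5% ± 8.97 and an ATAC site in 17.0% ± 5.54.

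Replicates set the level to read this against. H3K4me1 gaps bridged by another H3K4me1 library met H3K4me3 in 24.8% ± 13.9 of cases, from 8.55% to 42.0% over 6 ordered pairs, below every value for bridging by H3K4me2 (89.1% to 94.7%). H3K4me2 gaps bridged by the other H3K4me2 library met H3K4me3 in 0.464% of cases for replicate 1 and 7.73% for replicate 2. At gaps of 1 to 2 kb the bridged values were 92.4% ± 2.31 for H3K4me1 and 0.0914% ± 0.0717 for H3K4me2.

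Peak edges were compared in pairs in which 1 H3K4me1 peak met 1 H3K4me2 peak and no other, 22250 ± 2336 per pair of libraries. The H3K4me1 edge lay outside the H3K4me2 edge by a median of 176 and 147 bp for H3K4me1 replicate 1 (against H3K4me2 replicate 1, then 2), 80 and 35 bp for replicate 2, and 93 and 62 bp for replicate 3. All 6 were positive, with a mean of 98.8 bp ± 53.1 (exact p = 0.2, adjusted 0.367), which was 197 bp with −log10 q of at least 5. This extension was no larger than the spread between replicates: H3K4me1 replicate 1 reached 137 bp beyond replicate 2 and 73 bp beyond replicate 3, while the H3K4me2 libraries differed by 7 bp. Edges of the marks were nonetheless farther apart in either direction, by a median of 279 bp ± 35.0, against 194 bp ± 36.3 between H3K4me1 libraries and 96.0 bp between the H3K4me2 libraries. In 45.1% ± 6.60 of one-to-one pairs the H3K4me1 peak held the H3K4me2 peak, in 20.6% ± 3.91 it lay within it, and in 34.3% ± 3.26 the peaks were staggered.

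The offset was smaller where H3K4me3 was present, and negative there in 4 of 6 pairs. Where the H3K4me2 peak met H3K4me3, the median H3K4me1 edge was, in the same order, at 2.5, 6, −139, −150, −69.5 and −66 bp. In these one-to-one pairs, 7290 ± 1041 per pair of libraries, H3K4me1 peaks were thus level with the H3K4me2 peaks or shorter. The split leaves out the 3487 ± 796 H3K4me2 peaks that met 2 or more H3K4me1 peaks, of which 97.6% ± 0.668 met H3K4me3. Where it met no H3K4me3, the offset was 296, 246, 194, 107, 217 and 142 bp, so that H3K4me1 reached further out in every pair. The difference was −270 bp ± 44.1 and was negative in 6 of 6 pairs of libraries. Between libraries of the same mark the same split moved the offset by −48 to 52 bp. For H3K4me2 peaks of 2 to 4 kb the difference was −407 bp ± 114, again in 6 of 6.

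H3K27ac went with the longest H3K4me1 extension. Among H3K4me2 peaks without H3K4me3, the offset was 432 bp ± 174 with H3K27ac and 124 bp ± 45.2 without it, a difference of 308 bp ± 137 and higher in 6 of 6 pairs. In the same-mark pairs this difference was −118 to 35 bp. In 77.2% ± 12.3 of the pairs with H3K27ac and no H3K4me3 the H3K4me1 peak wholly held the H3K4me2 peak, against 20.7% ± 7.66 of those with H3K4me3. No test was made of these splits, since the pairs share libraries.

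**Figure D4:**
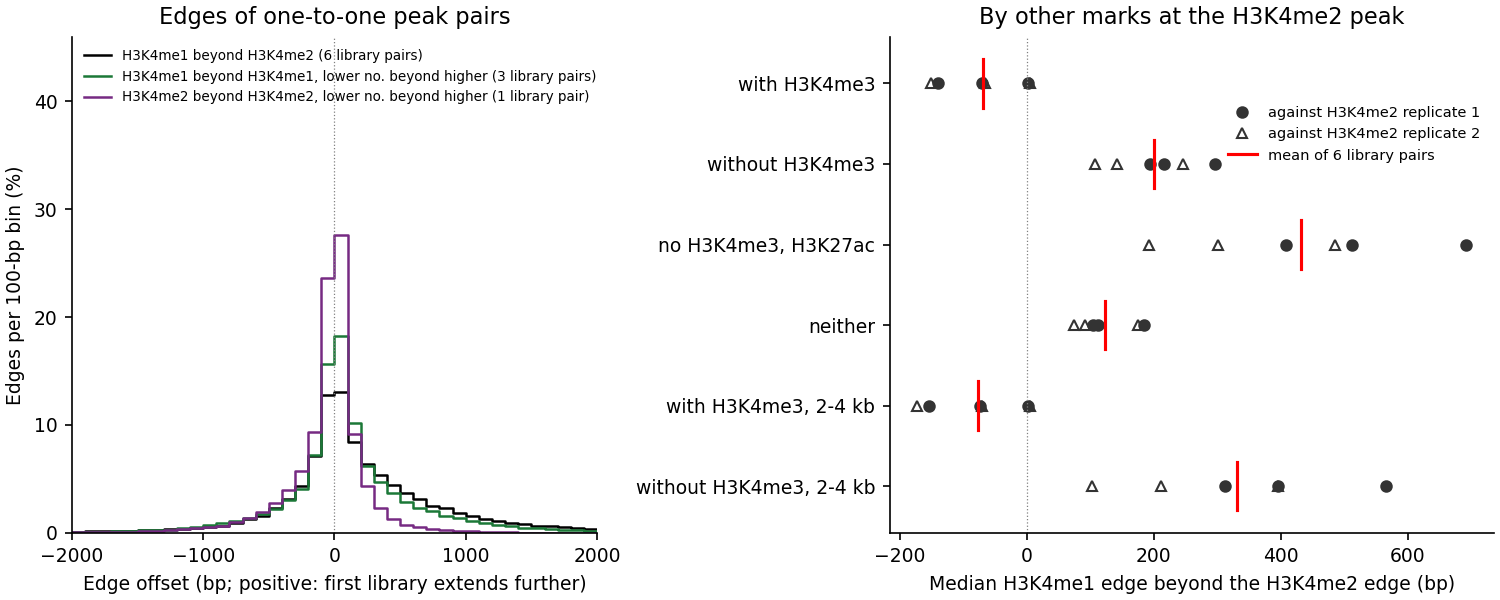
Left, distribution of edge offsets (bp, in 100-bp bins) in one-to-one peak pairs, averaged over library pairs of different marks (black) and of the same mark (green and purple, lower beyond higher replicate number). Right, median H3K4me1 edge beyond the H3K4me2 edge in each of 6 library pairs (points), with the mean (red line), by the other marks at the H3K4me2 peak and, in the lowest pair of rows, for H3K4me2 peaks of 2 to 4 kb. Offsets with H3K4me3 lie between −150 and 6 bp, and those without it between 107 and 296 bp.

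Cover by one mark around the peak centres of the other differed with the annotations. At the centres of H3K4me2 peaks, an H3K4me1 peak was present in 73.7% ± 12.0 with H3K4me3, in 97.3% ± 1.65 with H3K27ac but no H3K4me3, and in 54.4% ± 11.1 with neither (SD over 6 pairs). At 5 kb to the left the same shares were 18.9% ± 3.11, 34.3% ± 3.90 and 13.6% ± 2.79. With H3K4me3, H3K4me1 cover was highest at the centre, where it ran from 59.3% to 86.3% over the pairs. At 1 kb to the left it was 63.2% ± 7.93. At the centres of H3K4me1 peaks, an H3K4me2 peak was present in 95.4% ± 1.51 with H3K4me3, in 59.0% ± 6.59 with H3K27ac only and in 34.0% ± 4.19 with neither. H3K4me2 thus covered nearly all H3K4me1 centres at H3K4me3, and H3K4me1 nearly all H3K4me2 centres at acetylated regions without H3K4me3. Around H3K4me1 peaks with neither, H3K4me2 cover was 7.73% ± 1.51 at 1 kb, below its 12.5% ± 1.35 at 5 kb.

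**Figure D5:**
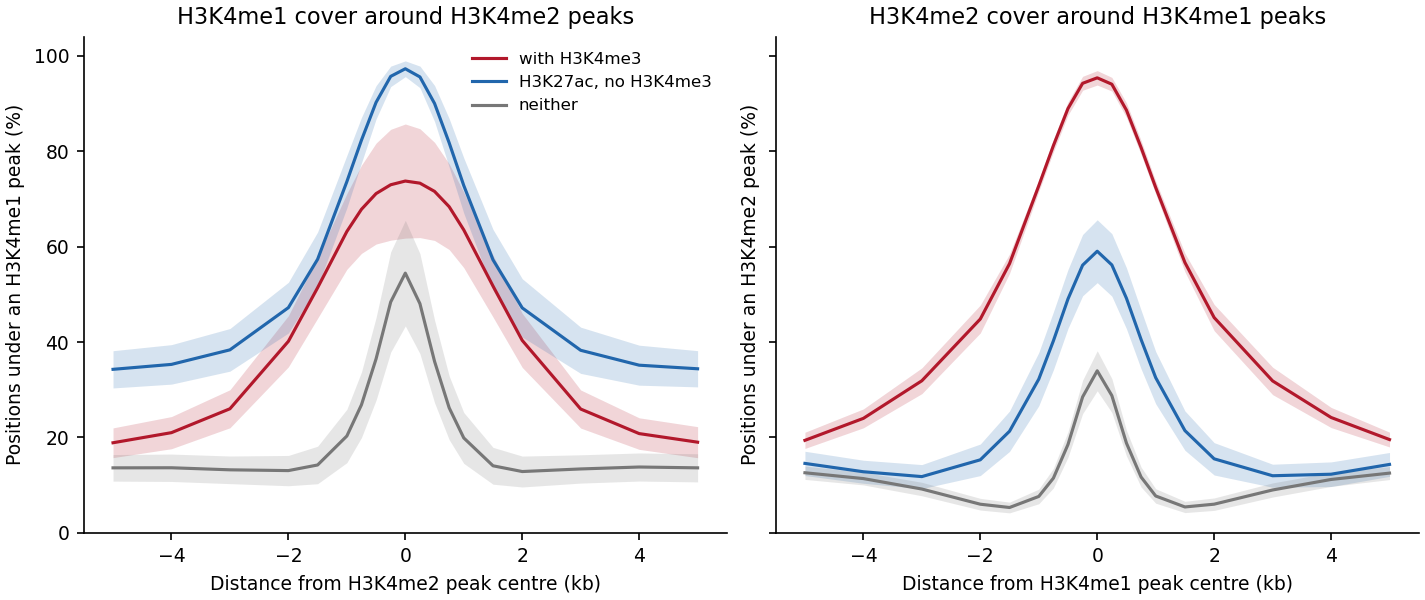
Percent of positions under an H3K4me1 peak around H3K4me2 peak centres (left) and under an H3K4me2 peak around H3K4me1 peak centres (right), by distance in kb, for peaks with H3K4me3 (red), with H3K27ac and no H3K4me3 (blue) and with neither (grey). Lines are means over 6 library pairs and bands are SDs. The order of red and blue at the centre is opposite in the panels, 73.7% and 97.3% on the left and 95.4% and 59.0% on the right.

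Single regions illustrate the classes, at mm9 positions (1-based). The widest consensus H3K4me1 region alone was chr6:55326095-55334473 (8.379 kb), with a mean fold enrichment, the authors' value for a peak over the caller's background, of 2.47 ± 0.203 (SD, n = 3) and none of the other marks. The widest consensus H3K4me2 region alone was chr9:55937450-55944045 (6.596 kb), at 2.48 ± 0.140 (n = 2) and also without them. The next H3K4me2 region, chr2:115887284-115893862 (6.579 kb), lay under H3K4me3 over 86.5% of its length. H3K4me3 lay on 4 of the 5 widest H3K4me2 regions alone and on 0 of the 5 widest H3K4me1 regions alone. Over all consensus regions alone, it lay on 11.9% of the 3872 H3K4me2 and 0.0255% of the 3922 H3K4me1 regions, so the widest H3K4me2 regions were not typical.

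The strongest regions alone differed likewise. The H3K4me2 region alone of highest fold enrichment was chr17:15115006-15115303 (0.298 kb, 9.10 ± 2.02), and the next were chr9:21093832-21094147 (8.60 ± 1.03) and chr7:7162043-7162677 (8.13 ± 1.70). All 3 lay under H3K4me3 over 100% of their length. The H3K4me1 region alone of highest fold enrichment was chr4:34894371-34894969 (0.599 kb, 4.08 ± 0.594), and none of the 3 highest met H3K4me3, H3K27ac or an ATAC site.

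The extremes of nesting lay in wide regions. Consensus H3K4me1 regions that wholly held 8 consensus H3K4me2 regions were chr2:18829953-18903210 (73.258 kb), chr7:97176548-97236153 (59.606 kb) and chr8:125498103-125538048 (39.946 kb). H3K4me2 covered 56.1%, 80.1% and 53.5% of their length, and the third met neither H3K4me3 nor an ATAC site. Consensus H3K4me2 regions that held 3 consensus H3K4me1 regions were chr6:119954205-119993268 (39.064 kb), chr13:22109818-22138602 (28.785 kb) and chr11:116700947-116716681 (15.735 kb), and H3K4me3 covered 20.1%, 68.3% and 60.6% of them.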

How the data were processed

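Per the submitters' processing notes, reads were processed with Trimmomatic 0.32, Bowtie 1.0.1, SAMtools and MACS2 on mm9. The MACS2 version, the settings and any control for calling are not given in the labels. The authors deposited 1 peak list per library, broad format for ChIP and narrow for ATAC, with a score, a fold enrichment (a ratio over the caller's background), −log10 p and −log10 q per peak. These peak values described, filtered and ranked peaks, and fold enrichment was averaged over the lists of a mark to rank its regions. Their size across marks depends on antibody and unknown depth and does not compare levels. The lists hold no counts, so depth is unknown. Per the file contents, the H3K4me1 peak names read "Mel" where the titles read "Me1", and the files' samples were taken from GEO's record.

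Only chromosomes 1 to 19, X and Y entered. Groups followed the titles, and members and lists were chosen with earlier results of these data known. Overlap needed 1 bp. Consensus regions were merged stretches with a peak of every library. Each of 11 differences had a two-sided exact permutation test over the libraries, with 10 arrangements, the p values adjusted by Benjamini-Hochberg. Named regions were the 5 widest of each mark alone, the 5 holding most regions of the other mark, the 3 of highest fold enrichment alone and the 5 widest H3K4me2 regions between H3K4me1. The splits of edges, partners and gaps by other marks, and the strong-peak counts, were added after the first results were seen. Alternatives were a −log10 q of at least 5, equal peak numbers, an overlap of 25%, other flanks, stitching, leaving out each library and pairing by replicate number. Interval code was tested on simulated data. Python 3.11.15, numpy 2.4.6, scipy 1.17.1 and matplotlib 3.10.9 were used. No sequence or gene annotation was used, since the reference tables supplied are on another build.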

Additional observations from a re-analysis of the deposited data

Results flagged for a closer look

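Chromosome X stood apart from the autosomes in opposite directions for the marks, a contrast chosen after its values were seen. The share of peaks alone on X minus that on autosomes averaged −9.63 points for H3K4me1 and 7.80 points for H3K4me2. Per library, the share alone on X was 24.4%, 15.9% and 13.0% for H3K4me1 and 23.7% and 19.7% for H3K4me2, against 33.2%, 24.0% and 25.1% of H3K4me1 and 16.1% and 11.6% of H3K4me2 peaks on autosomes. The share of shared peaks differed by 11.4 points for H3K4me1 and −8.85 points for H3K4me2. The median width differed by −216 bp for H3K4me1 and 120 bp for H3K4me2. Every library of one mark moved one way and every library of the other mark the opposite way, and this difference between the marks was not tested. X had 1056 ± 171 H3K4me1 peaks (SD, n = 3) and 1084 ± 16.3 H3K4me2 peaks (n = 2), which is 0.347 ± 0.0164 of the autosomal density for H3K4me1 and 0.396 ± 0.00221 for H3K4me2. The ratio of H3K4me1 to H3K4me2 peaks per Mb was 0.975 on X and between 1.05 and 1.17 on the 19 autosomes. The sex of the embryos is not used here, and its part in these values was not tested.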

How the results depend on the processing

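Of 121 recomputed differences, 112 kept their direction, among them all 55 with 1 library left out, and no difference could pass 0.05 under any setting. With −log10 q of at least 5, the difference in peak number turned to −12966, that in peaks meeting the other mark to 50.6 points, that in bases to 21.9 points, that in gaps to 13225 bp and that in H3K27ac on peaks alone to −7.83 points. Stitching peaks less than 2 kb apart, added after seeing the data, turned peak number to −944 and the share with the other mark on both sides to −0.0323 points. That share was −0.0310 points with flanks of 1 kb and −0.263 with libraries paired as a replicate block by number. The numbers are not shown to pair libraries, since their title tags differ. Stitching within 500 bp changed nothing, since no gap was that short, so the 11 kept directions it adds to the 112 were fixed in advance. The cause of these changes was not tested. Unknown depth, weak H3K4me1 calls and 2 H3K4me2 libraries limit every comparison, and shares of regions say nothing of how many molecules or cells carried a mark.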

Other observations

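The 6 consensus H3K4me2 regions that met no H3K4me1 peak and had consensus H3K4me1 within 2 kb on both sides were small and weak. The widest was chr15:6530978-6532400 (1.423 kb, mean fold enrichment 2.78 ± 0.0656, SD, n = 2), with H3K4me1 at 1.17 kb on one side and 1.163 kb on the other. None of the 5 widest met H3K4me3, H3K27ac or an ATAC site.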
